A study of Mus musculus with 8 samples.

Results

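The miR-125 family and the miR-99/100 family were examined by miRNA-Seq in primary murine articular chondrocytes, which build and maintain the cartilage of joints, after culture with vehicle or with the inflammatory cytokine IL-1β. The set comprised 10 mature miRNAs of the 1966 named in the count table, defined by their names, with no measured value in the rule (the prefix mmu-, for mouse, is mostly left out here): the 5p and 3p arms of miR-125a, miR-99a and miR-99b, the 5p arm and both 3p arms of miR-125b, and miR-100-5p. The cells came from femoral head cartilage of wild-type mice at 3 weeks of age and were grown in high-glucose DMEM with 10% fetal bovine serum. The IL-1β group received 1 ng/ml for 24 h (n = 4 libraries) and the vehicle group received vehicle over the same time (n = 4 libraries). Neither group carried a transgene, and the strain and sex were not given in the sources used here. Nothing in the labels stated that the libraries came from separate mice or cultures, so p-values measure the spread between these libraries, which may be technical.

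A miRNA is cut from a hairpin precursor, and 1 strand (the 5p or the 3p arm) is loaded into an Argonaute protein, where its seed, bases 2 to 8, pairs with target mRNAs and represses them. miR-125 is the vertebrate counterpart of lin-4, the first miRNA described in nematodes, and miR-99/100 is an ancient family known for targeting components of mTOR signaling. Hairpins of both families lie beside let-7 hairpins in the genome, an arrangement shared with many other bilaterian animals, and miR-125b is known in cartilage as a regulator of aggrecanase (Adamts4).

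The mature sequences are shown because the seed defines each family and because near-identity between members limits how their reads can be told apart. They were taken from RefSeq (GRCm38.p6), in which all 10 members were found. Bases are written 5′ to 3′ with the seed in capitals.
mmu-miR-125a-5p: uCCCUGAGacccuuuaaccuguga
mmu-miR-125b-5p: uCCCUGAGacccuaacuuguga
miR-351-5p: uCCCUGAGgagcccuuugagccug
mmu-miR-99a-5p: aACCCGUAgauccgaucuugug
mmu-miR-99b-5p: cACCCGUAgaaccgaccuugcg
mmu-miR-100-5p: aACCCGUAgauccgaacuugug
The seed of miR-125a-5p and miR-125b-5p was carried by 5 of 1679 mature names in the RefSeq table. The other 3 were miR-351-5p, which had 130900 counts over the 8 libraries, and miR-6367 and miR-6394, each with 0 counts. miR-125a-5p and miR-125b-5p were identical over their first 13 bases, whereas miR-125b-5p and miR-351-5p shared the first 8. The miR-99/100 seed occurred in miR-99a-5p, miR-99b-5p and miR-100-5p alone among these names. With positions counted from 1 at the 5′ end, miR-100-5p differed from miR-99a-5p by a single substitution (U16A). miR-99b-5p differed from miR-99a-5p by 4 substitutions (A1C, U11A, U16C and U21C).

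The 3p arms carry other seeds, and those of miR-125b also show which hairpin a read came from.
mmu-miR-125b-1-3p: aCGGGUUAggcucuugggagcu
mmu-miR-125b-2-3p: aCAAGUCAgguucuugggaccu
mmu-miR-125a-3p: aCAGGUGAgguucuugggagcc
mmu-miR-99a-3p: cAAGCUCGuuucuaugggucu
mmu-miR-99b-3p: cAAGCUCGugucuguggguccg
miR-99a-3p and miR-99b-3p shared a seed, and no other mature name in the table carried it. The 3p arms of miR-125a, miR-125b-1 and miR-125b-2 each had a seed found in no other name. The sequence of miR-125b-5p occurs at 2 loci, so its counts cannot be assigned to a hairpin, while miR-125b-1-3p and miR-125b-2-3p each belong to 1.

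The hairpins form 3 clusters (GRCm38, all on the plus strand), each with a miR-99/100 hairpin first, a let-7 hairpin next and a miR-125 hairpin last. On chromosome 9 the cluster spans 50578 bp with Mir100 (chr9:41531425-41531504), Mirlet7a-2 (chr9:41536716-41536811) and Mir125b-1 (chr9:41581926-41582002), all in an intron of the non-coding gene 3110039I08Rik. Mir100 also overlaps an exon of the long non-coding RNA Gm48742 on the opposite strand, and Mir125b-1 an exon of the sense-intronic transcript Gm28119 on the same strand. On chromosome 16 it spans 47408 bp with Mir99a (chr16:77598936-77599000), Mirlet7c-1 (chr16:77599657-77599750) and Mir125b-2 (chr16:77646273-77646343), in an intron of Mir99ahg, the miR-99a host gene. Mir125b-2 also overlaps an exon of C130023A14Rik on the same strand, whose type is still to be established experimentally (TEC) in the annotation. On chromosome 17 all of it lies within 692 bp, with Mir99b (chr17:17830188-17830257) and Mirlet7e (chr17:17830352-17830444) in an intron of Spaca6 and Mir125a (chr17:17830812-17830879) overlapping an annotated exon of that gene, which is known for its role in sperm-egg fusion.

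**Figure D1:**
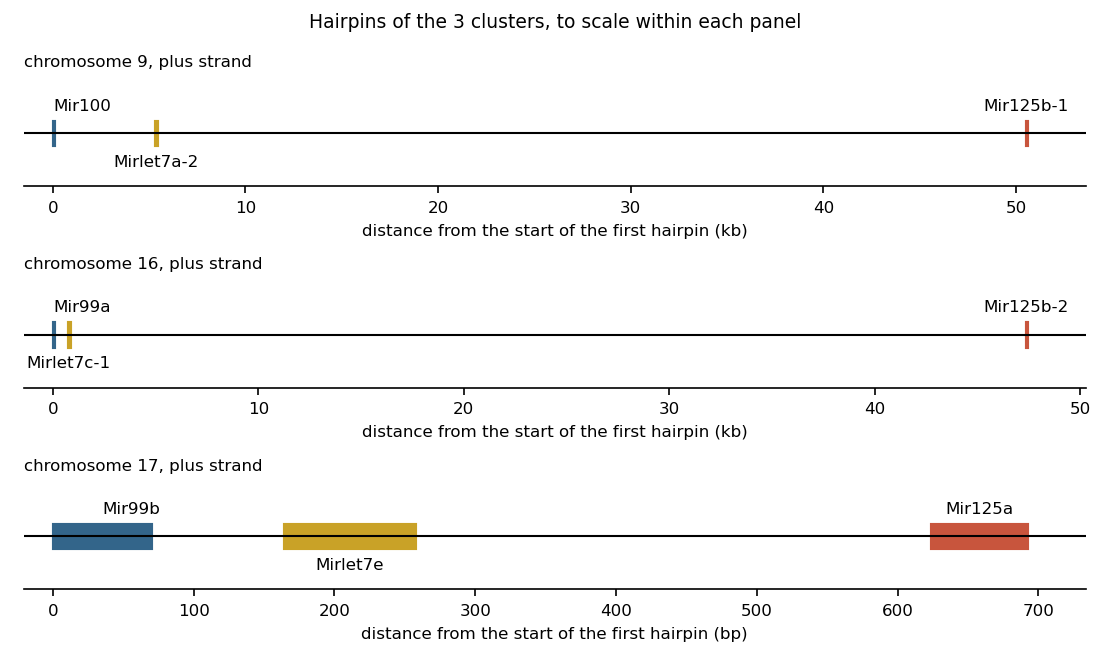
Positions of the hairpins in the 3 clusters as distance from the start of the first hairpin (kb for chromosomes 9 and 16, bp for chromosome 17), with miR-99/100 hairpins in blue, let-7 in yellow and miR-125 in red. The order was the same in each cluster, but the last hairpin of chromosome 17 starts 624 bp from the first, against 50501 bp on chromosome 9 and 47337 bp on chromosome 16.

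Library totals ranged from 616475 to 1568367 counts, so that 1 count was worth 0.638 to 1.62 CPM (counts scaled to a library total of 1e+06). Cartilage markers (both arms of miR-140 and miR-455, 4 of 4 with counts) took 15.6% to 16.8% of counts with vehicle and 12.4% to 15.3% with IL-1β, so that every IL-1β library was lower. Most of this share was miR-140-3p, whose groups overlapped in normalized CPM (defined below). None of the 4 markers was called different by edgeR at the thresholds given below. Among single miRNAs, 3.01% of those tested were separated with IL-1β lower, in normalized CPM. All 6 muscle markers were at 0 counts, and the limit that 0 counts allow (3 counts) was a share of 0.000191% for the deepest library and 0.000487% for the shallowest. Of the 7 haematopoietic markers 5 had 0 counts, including miR-142a-3p, miR-223-3p and miR-451a, and the summed share of the 7 was 0.00441% to 0.00638% with vehicle and 0.00260% to 0.00471% with IL-1β. The endothelial, epithelial and neural lists took at most 0.00258% of any library, and the liver list at most 0.0109%.

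The 5p arms were among the most abundant miRNAs of these chondrocytes. Ordered by mean share of counts over the 8 libraries, miR-125a-5p was number 6, miR-125b-5p number 7 and miR-99b-5p number 10 of the 1003 miRNAs with a count. miR-99a-5p followed at number 57 and miR-100-5p at number 84. Values below are normalized CPM, in which library totals were adjusted by TMM factors from edgeR. They are reads of whole miRNAs of 21 to 24 nt and were not divided by length. Since library preparation favors some sequences, levels of different miRNAs are not molar amounts.

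Summed, miR-125a-5p and miR-125b-5p took 7.89%, 7.17%, 7.78% and 8.09% of counts in vehicle replicates 1 to 4 and 8.16%, 8.48%, 8.22% and 10.6% in IL-1β replicates 1 to 4. All 4 IL-1β libraries lay above all 4 vehicle libraries, 3 of them by little and replicate 4 by far more. Among single miRNAs, 4.61% of those tested were separated with IL-1β higher, in normalized CPM. With miR-351-5p, which has the same seed, added to the sum after the values had been seen, the shares were 8.71% to 9.79% with vehicle and 9.66% to 12.5% with IL-1β, and the groups overlapped. The seed of miR-99/100 took 2.06%, 1.82%, 1.91% and 2.06% with vehicle and 1.85%, 1.92%, 1.80% and 2.22% with IL-1β, and these ranges overlapped. Wilson 95% intervals, which cover counting error only, reached at most 0.0683 and 0.0350 percentage points to either side. No test was applied to these sums. The share of the cartilage markers was lower in the same IL-1β libraries in which that of miR-125a-5p and miR-125b-5p was higher, and its part in this result was not tested. miR-125b-5p made up 44.7% to 51.6% of the sum with miR-125a-5p, whereas miR-99b-5p made up 90.5% to 92.7% of the miR-99/100 sum.

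To ask whether IL-1β changed these miRNAs, each was compared between the groups. None of the 10 members was called different (edgeR quasi-likelihood test over 564 miRNAs, Benjamini-Hochberg adjusted p under 0.05 and absolute log2 fold change over 0.3), where 1.95% of all tested miRNAs (11) were called, 1.42% higher and 0.532% lower. DESeq2 likewise called 0 of the 10, with 2.13% of all miRNAs called, but gave no adjusted p for miR-99a-3p. At an unadjusted edgeR p under 0.05 there were 2 members, miR-125b-5p and miR-125b-1-3p, both higher with IL-1β, against a background of 11.2% in either direction and 7.09% higher. All 10 members passed the filter of over 1 CPM in at least 4 libraries. The median log2 fold change of the 10 was 0.12 and 8 were above 0, beside a median of 0.0063 and 285 above 0 among all 564. Without IL-1β replicate 4 the median of the members was -0.04 and 4 of 10 were above 0, beside -0.01 and 258 among all 537. The direction of the median of the members thus rested on that library. None of the 10 was called without it, where edgeR called 3.54% of 537 miRNAs (2.79% higher). The unadjusted edgeR p was then under 0.05 for 2 of the 10, miR-125b-5p (0.0223) and miR-125b-1-3p (0.0256), and for 13.4% of the 537.

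**Figure D2:**
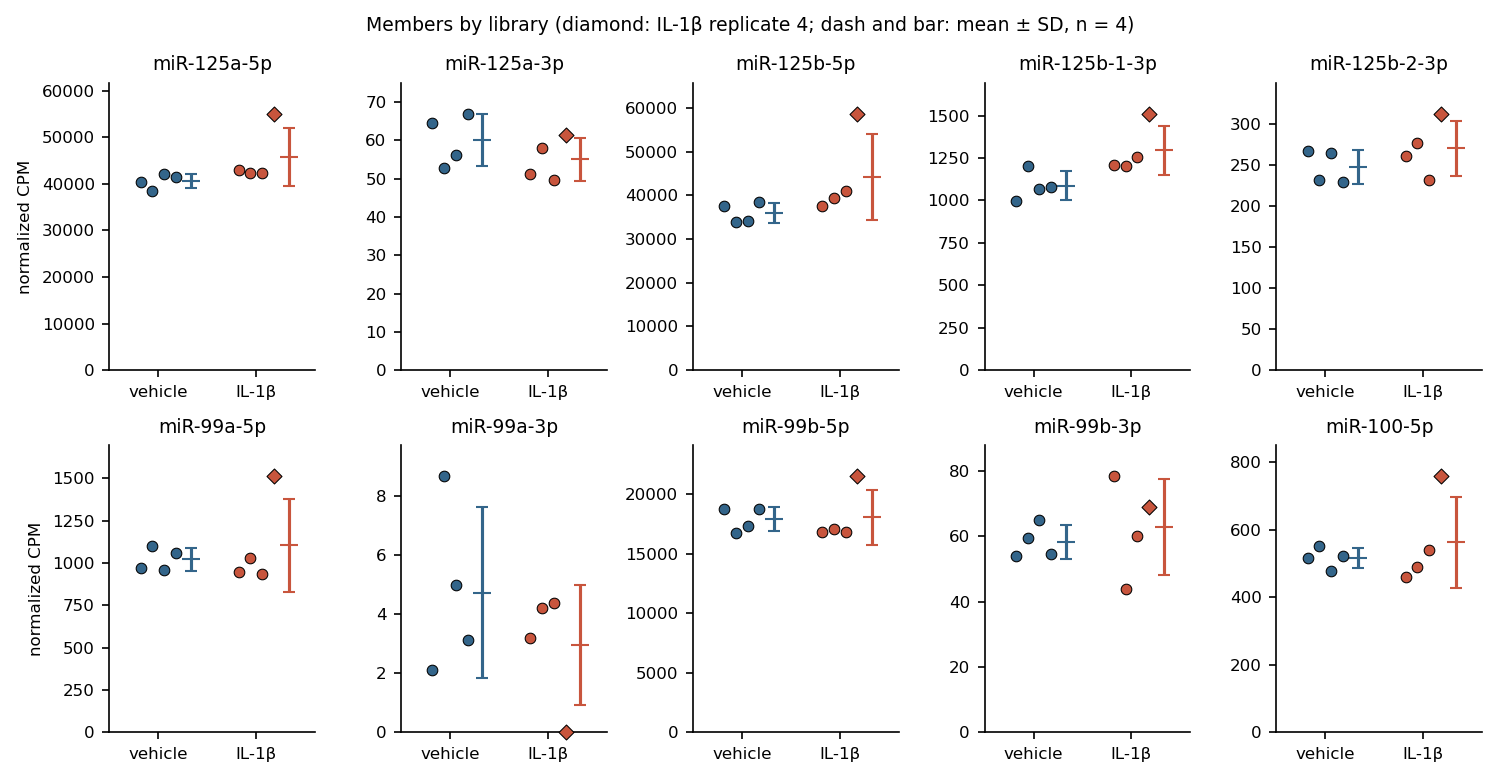
Normalized CPM of the 10 members in each library (y axis from 0, separate for each panel), with vehicle in blue and IL-1β in red. IL-1β replicate 4, drawn as a diamond, is the highest of all 8 points for all 5 of the 5p arms and for both miR-125b 3p arms, and lies at 0 for miR-99a-3p.

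mmu-miR-125b-5p, the more studied of the miR-125 guide strands, was at 37463, 33982, 34061 and 38400 normalized CPM in vehicle replicates 1 to 4. In IL-1β replicates 1 to 4 it was at 37476, 39422, 41063 and 58673. Of the IL-1β libraries 3 lay above the highest vehicle library, and replicate 1 lay within the vehicle range. The means were 35976 ± 2290 and 44159 ± 9787 (SD, n = 4). This gave a log2 fold change of 0.30 (SE 0.113, 95% confidence interval 0.06 to 0.53). The edgeR adjusted p was 0.232 (unadjusted p = 0.0166), and at 0.2957 the log2 fold change was also short of the 0.3 required. Without IL-1β replicate 4 the log2 fold change was 0.13 (95% confidence interval 0.02 to 0.24, edgeR adjusted p = 0.260), less than the full value by over 1.5 times.

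The 3p arms of miR-125b, usually the discarded strands, were examined by hairpin. miR-125b-1-3p, from chromosome 9, was at 995, 1204, 1069 and 1078 normalized CPM with vehicle and at 1211, 1201, 1255 and 1510 with IL-1β, replicates 1 to 4. Of the IL-1β libraries 3 exceeded every vehicle library, and replicate 2 was just below vehicle replicate 2. The vehicle mean was 1086 ± 86.8 and the IL-1β mean 1294 ± 146 (SD, n = 4), a log2 fold change of 0.25 (SE 0.0915, 95% confidence interval 0.06 to 0.44, edgeR adjusted p = 0.196). This was the lowest adjusted p among the members, and without IL-1β replicate 4 the log2 fold change was 0.17 (edgeR adjusted p = 0.278). miR-125b-2-3p, from chromosome 16, was at 267, 231, 264 and 229 with vehicle and at 261, 276, 231 and 312 with IL-1β, and the groups overlapped (edgeR adjusted p = 0.753, log2 fold change 0.12 with an SE of 0.107). Without IL-1β replicate 4 it was at 0.0547, and without vehicle replicate 4 at 0.0636.

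mmu-miR-125a-5p, which shares its seed with miR-125b-5p, was at 40374, 38508, 42153 and 41420 normalized CPM with vehicle. With IL-1β it was at 42997, 42409, 42368 and 55034. It was the only member whose groups did not overlap, where this held for 7.62% of all tested miRNAs (4.61% with IL-1β higher and 3.01% with IL-1β lower). The lowest IL-1β library exceeded the highest vehicle library by a margin smaller than the spread within vehicle. The log2 fold change was 0.17 (SE 0.0895, 95% confidence interval -0.01 to 0.35, edgeR adjusted p = 0.534), and 0.07 without IL-1β replicate 4. Its 3p arm, miR-125a-3p, was scarce, at 52.7 to 67.0 with vehicle and 49.7 to 61.4 with IL-1β, with 457 counts in total (edgeR adjusted p = 0.871, log2 fold change -0.09 with an SE of 0.156). Its log2 fold change was -0.15 without vehicle replicate 2 or IL-1β replicate 2 and -0.0523 without vehicle replicate 1.

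mmu-miR-99b-5p, the dominant member of its family here, was at 18784, 16750, 17314 and 18750 normalized CPM with vehicle and at 16825, 17048, 16785 and 21514 with IL-1β. IL-1β replicates 1 to 3 lay at the low end of the vehicle range, and replicate 4 lay above it. The log2 fold change was 0.01 (SE 0.0895, 95% confidence interval -0.17 to 0.20, edgeR adjusted p = 0.992), and its sign was negative with library totals only, with no filter on low counts, and without vehicle replicate 2, vehicle replicate 3 or IL-1β replicate 4. miR-99b-3p ranged from 54.1 to 65.0 with vehicle and from 43.8 to 78.4 with IL-1β, so that IL-1β libraries lay on either side of the vehicle range (edgeR adjusted p = 0.970, log2 fold change 0.05 with an SE of 0.172).

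mmu-miR-99a-5p and mmu-miR-100-5p differ by 1 base and come from different chromosomes. miR-99a-5p was at 970, 1098, 958 and 1058 normalized CPM with vehicle and at 944, 1028, 935 and 1513 with IL-1β. miR-100-5p was at 516, 551, 477 and 520.3 with vehicle and at 461, 490, 539 and 758 with IL-1β. For both, IL-1β replicate 4 was the highest library and the other 3 lay within or below the vehicle range. The log2 fold change was 0.12 for miR-99a-5p (edgeR adjusted p = 0.780, SE 0.124) and 0.12 for miR-100-5p (edgeR adjusted p = 0.757, SE 0.121). Without IL-1β replicate 4 these values were -0.07 and -0.05, the opposite sign. miR-99a-3p had 35 counts in all, at 2.12 to 8.68 normalized CPM with vehicle and 0 to 4.38 with IL-1β. Its 0 in IL-1β replicate 4 allows up to 3.50 CPM before adjustment by the TMM factor. No change was called for miR-99a-3p, whose estimate was imprecise (edgeR adjusted p = 0.753, log2 fold change -0.76 with an SE of 0.611). Its log2 fold change was -0.28 without vehicle replicate 2 and -0.38 without IL-1β replicate 4.

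**Figure D3:**
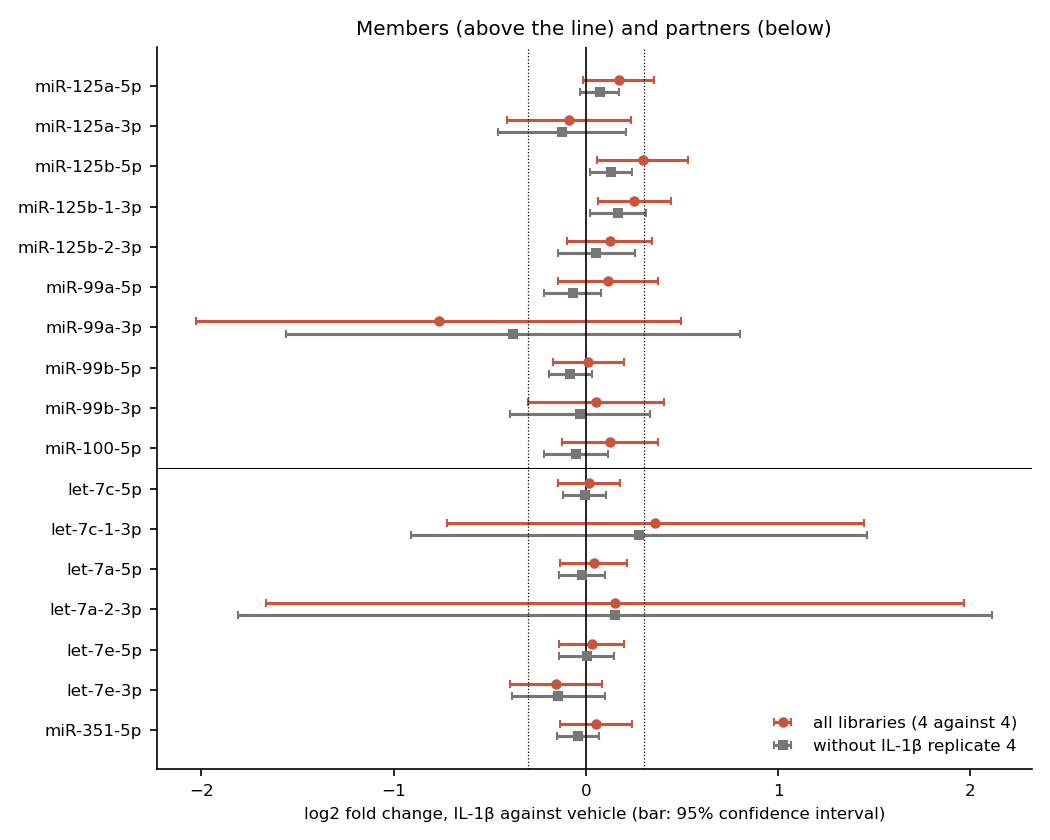
Log2 fold change of IL-1β against vehicle with its 95% confidence interval for the 10 members and the 7 tested partners, from all libraries (red circles) and without IL-1β replicate 4 (grey squares), with dotted lines at -0.3 and 0.3. Of the members, miR-125b-5p and miR-125b-1-3p have intervals above 0 in both fits, and miR-99a-5p, miR-99b-5p, miR-99b-3p and miR-100-5p move from above to below 0 when that library is left out.

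IL-1β replicate 4 was high for nearly the whole set. The log2 level in each library was set against the mean over the remaining 3 of the same group, for the 195 miRNAs that averaged 50 counts or more. All 9 members in this range were positive in IL-1β replicate 4, where 55.4% of the 195 were, and 6 of the 9 exceeded 0.3, where 20.5% of the 195 did so. In IL-1β replicates 1, 2 and 3 the members above 0 numbered 1, 2 and 0 (beside 46.7%, 44.6% and 50.8% of the 195), a count lowered by the height of replicate 4 in the mean they were compared with. In the vehicle libraries they numbered 3 to 6 (beside 42.1% to 55.9%). The deviation in replicate 4 was 0.64 for miR-99a-5p, 0.61 for miR-100-5p and 0.58 for miR-125b-5p, and 0.37 and 0.35 for miR-125a-5p and miR-99b-5p. It was 0.31 for miR-125b-1-3p and 0.29 for miR-125b-2-3p. Among all 195 miRNAs, miR-99a-5p, miR-100-5p and miR-125b-5p were at places 7, 8 and 10 from the top in this library.

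The same library differed from the others in further measures. Its TMM factor was 0.932 against 0.985 to 1.04, the 195 deviations had an SD of 0.40 in place of 0.15 to 0.23, and cartilage markers took 12.4% of its counts against 14.7% to 16.8%. The liver list, of which miR-122-5p was at 0, took 0.0109% against 0.00521% to 0.00892%. The part of these differences in the result was not tested.

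**Figure D4:**
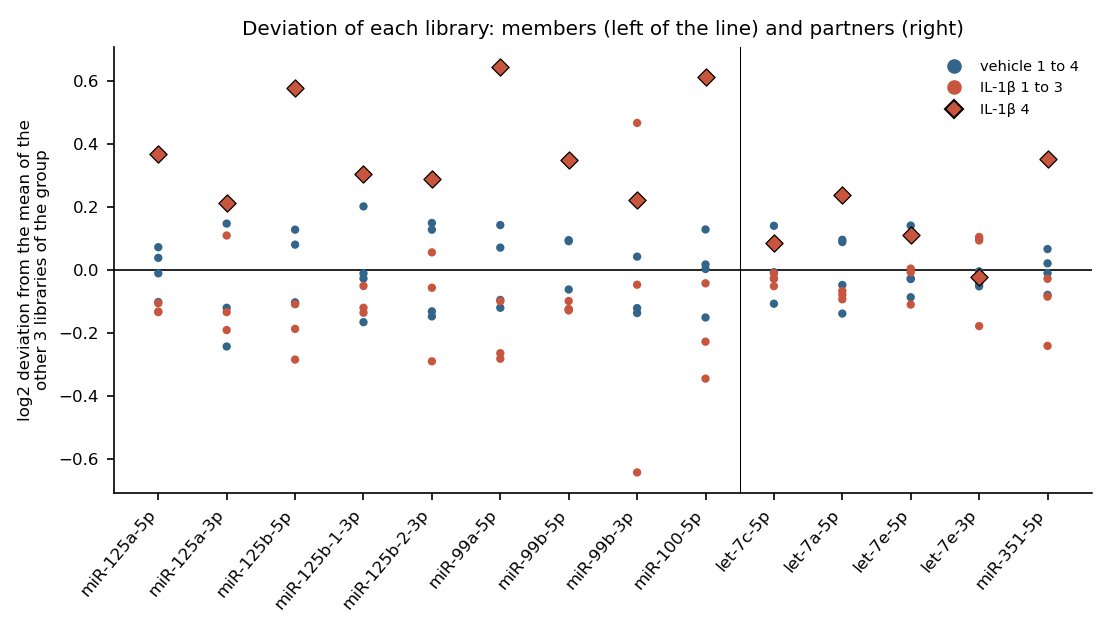
Log2 deviation (y axis) of every library from the remaining 3 of its group, for the 9 members and 5 partners that averaged 50 counts or more. The diamond of IL-1β replicate 4 is the highest point for 7 of the 9 members (the exceptions are miR-125a-3p and miR-99b-3p), but lies at 0.09 for let-7c-5p, 0.11 for let-7e-5p and -0.02 for let-7e-3p. Among the partners it is also the highest point for let-7a-5p (0.24) and miR-351-5p (0.35).

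The let-7 hairpins that lie between the members were looked at next, since a cluster may be transcribed as a unit. Of the 8 partners listed (let-7c-5p, let-7c-1-3p, let-7a-5p, let-7a-2-3p, let-7e-5p, let-7e-3p, miR-100-3p and the seed relative miR-351-5p), 7 were tested and 0 were called by edgeR or DESeq2. DESeq2 gave no adjusted p for let-7c-1-3p and let-7a-2-3p. None of the 7 had an unadjusted edgeR p under 0.05. miR-100-3p had 1 count in all. The median log2 fold change of the 7 was 0.04, and edgeR adjusted p ran from 0.740 to 0.992. let-7c-5p, from Mirlet7c-1 beside Mir99a and from a further copy on chromosome 15, was at 13510 to 15362 normalized CPM with vehicle and 14064 to 15110 with IL-1β. let-7e-5p, beside Mir99b and Mir125a, was at 949 to 1068 and 959 to 1075. The other arm of that hairpin, let-7e-3p, was at 124 to 134 with vehicle and 104 to 121 with IL-1β, and was the only partner whose groups did not overlap. All 4 IL-1β libraries were lower, as in 3.01% of all tested miRNAs, with a log2 fold change of -0.16 (edgeR adjusted p = 0.740, SE 0.116).

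In IL-1β replicate 4 the ratios of 5p members to their let-7 neighbors were the highest of the 8 libraries, by margins that differed. The ratio of miR-99a-5p to let-7c-5p was 0.1001 in that library and 0.0656 to 0.0751 in the other 7. For miR-100-5p to let-7a-5p it was 0.130 against 0.0934 to 0.109, and let-7a-5p has a further copy on chromosome 13. On chromosome 17, miR-125a-5p to let-7e-5p was 51.2 against 36.1 to 44.2, and miR-99b-5p to let-7e-5p was 20.01 against 15.7 to 19.8, barely above vehicle replicate 4. miR-351-5p, which has the miR-125 seed but lies on the X chromosome (chrX:53053255-53053353, minus strand), was also highest in this library, at 20071 normalized CPM against 14752 to 16791.

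Because a ratio within a library does not depend on scaling, 8 ratios between members were compared (exact permutation test, two-sided, 70 arrangements, smallest possible p = 0.0286, Benjamini-Hochberg adjusted over 8). None passed, but a single ratio at the smallest p has an adjusted p of 0.229, and at least 5 of the 8 would have to reach it for any to pass, so little can be read from that count. The 5p arm of miR-125a outnumbered the 3p arm by 624, 730, 750 and 618 to 1 in vehicle replicates 1 to 4 and by 840, 729, 853 and 896 to 1 with IL-1β. Of the IL-1β libraries 3 were above all vehicle libraries and replicate 2 was within their range. The log2 difference was 0.28 (95% confidence interval 0.04 to 0.52, exact permutation p = 0.0857, adjusted 0.343), with 3p counts of 32 to 90 per library limiting its precision. The confidence interval, unlike the exact test, assumes normal errors. The 5p to 3p ratio of miR-99b was 214.7 to 389 and differed by -0.08 (95% confidence interval -0.57 to 0.42, exact permutation p = 0.743, adjusted 0.849).

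Between the guide strands, miR-125b-5p to miR-125a-5p was 0.928, 0.882, 0.808 and 0.927 with vehicle and 0.872, 0.930, 0.969 and 1.07 with IL-1β. These overlapped, with a log2 difference of 0.11 (95% confidence interval -0.08 to 0.30, exact permutation p = 0.229, adjusted 0.610). The difference was 0.0600 without IL-1β replicate 4 and 0.0684 without vehicle replicate 3. IL-1β replicate 4 was the only library in which miR-125b-5p outnumbered miR-125a-5p. miR-125b-5p to miR-99a-5p was 31.0 to 38.6 with vehicle and 38.3 to 43.9 with IL-1β, with a log2 difference of 0.19 (95% confidence interval -0.01 to 0.38, exact permutation p = 0.0571, adjusted 0.343). In IL-1β replicate 4 it was 38.8, within the range of the other IL-1β libraries. miR-100-5p to miR-99a-5p, the pair that differs by 1 base, stayed between 0.476 and 0.577 in all 8 libraries (log2 difference 0.0097, 95% confidence interval -0.15 to 0.17, exact permutation p = 0.943, adjusted 0.943). How reads too short to reach base 16 were divided between them was not stated. miR-99b-5p to miR-99a-5p was 14.2 to 19.4 (log2 difference -0.08, exact permutation p = 0.486, adjusted 0.724), and the difference was -0.15 without vehicle replicate 2, -0.0346 without vehicle replicate 1 and -0.0085 without IL-1β replicate 4. For miR-99a the arm ratio was 127 to 458 in the 7 libraries with a 3p count, and the log2 difference of 0.85 (exact permutation p = 0.543, adjusted 0.724) was -0.03 without IL-1β replicate 4, where the 3p arm was at 0.

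The hairpin on chromosome 9 gave most of the miR-125b 3p reads. miR-125b-1-3p was 78.8%, 83.9%, 80.2% and 82.5% of both 3p arms in vehicle replicates 1 to 4 and 82.3%, 81.3%, 84.5% and 82.9% with IL-1β (Wilson 95% interval at most 2.57 percentage points to either side). The groups overlapped (log2 difference of the ratio of the arms 0.13, 95% confidence interval -0.18 to 0.44, exact permutation p = 0.371, adjusted 0.724). The difference was 0.0514 without vehicle replicate 1, 0.0705 without IL-1β replicate 3 and 0.21 without vehicle replicate 2. miR-125b-5p exceeded both 3p arms together by 23.7 to 32.2 times. Arms are kept to different extents and libraries favor some sequences, so these shares do not give the output of each hairpin.

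The miRNAs whose profile over the 8 libraries was most like each guide strand were found by the root mean square difference of centred log2 normalized CPM, over the 194 candidates that averaged 50 counts or more. For miR-99a-5p the nearest was miR-100-5p (0.0818, where the median candidate was at 0.254), ahead of miR-27b-3p and let-7f-5p. For miR-100-5p the nearest were miR-191-5p (0.0417), miR-143-3p and miR-151-5p. For miR-125b-5p they were miR-3057-5p (0.0803), miR-98-5p and miR-125a-5p. For miR-125a-5p they were miR-98-5p (0.0688), miR-27b-3p and let-7f-5p. For miR-99b-5p they were miR-351-5p (0.0531), miR-322-3p and miR-26a-5p. Members of either family thus appeared among the nearest 3 for miR-99a-5p and miR-125b-5p, and did not for the other 3 guide strands. Like the guide strands, all of the miRNAs named here were highest in IL-1β replicate 4. miR-27b-3p, for example, was at 10345 normalized CPM there and at 7270 to 7801 in the other libraries. Likeness without that library was not tested.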

How the data were processed

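The authors trimmed low-quality bases with cutadapt, placed the reads on mm10 with STAR (default settings), obtained counts from featureCounts and described a batch correction with RUVseq. The processing notes of the submitters list STAR 2.4.2a, whereas the methods name another version. The deposited values are counts per mature miRNA and, being whole numbers, were taken as raw. The handling of reads with several matches and of strand is not given in the sources used here. A length column accompanies the counts (other values, in nt, as deposited). Of 53 names with several loci in RefSeq, 22 were longer than 1 copy and 31, including miR-125b-5p, were not.

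Counts were tested with edgeR 4.0.16 (quasi-likelihood, robust, TMM, two-sided) in R 4.3.3 over all miRNAs at over 1 CPM in at least 4 libraries, with group as the only term, and checked on simulated data. Totals were 616475 to 1568367 counts. Wilson intervals and floors (3 counts) cover counting error only, and the intervals of fold changes and ratios rest on the spread between libraries. All pairs of replicates differed by more than sampling noise. The chi-square statistic per degree of freedom was 45.9 to 68.1 for pairs with IL-1β replicate 4 and 4.12 to 13.9 for the others. DESeq2 1.42.0, other scaling and filters, a replicate block, 1 factor of unwanted variation and each library left out were the alternatives. Both call thresholds follow the study. The named miRNAs are the members, the listed partners and markers, and the 3 most alike profiles of each 5p member (mean of at least 50 counts). The families and lists were chosen for study with earlier results of these data known.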

Additional observations from a re-analysis of the deposited data

Results flagged for a closer look

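Among 56 groups of 4 libraries examined, 8 held a library whose gap to the nearest of the other 3 took over 0.829 of the range, where chance flags about 1 in 20 groups (2.8 of 56). All 8 were IL-1β replicate 4. They are not independent, as they share that library and several share counts.

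The values of IL-1β replicate 4 were 55034 normalized CPM for miR-125a-5p (the others were at 42368 to 42997), 58673 for miR-125b-5p (37476 to 41063), 1513 for miR-99a-5p (935 to 1028), 21514 for miR-99b-5p (16785 to 17048) and 5853 for the partner let-7a-5p (4930 to 4999). The summed level was 113707 for miR-125a-5p and miR-125b-5p together (80473 to 83430) and 23785 for miR-99a-5p, miR-99b-5p and miR-100-5p (18229 to 18566). The log2 ratio of miR-99a-5p to miR-99a-3p was 11.24 (7.52 to 7.88), computed with 0.5 added to a 3p count of 0.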

How the results depend on the processing

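No member was called in any of the 16 alternatives, and no partner was. Of these alternatives 14 gave an adjusted p for miR-99a-3p, let-7c-1-3p and let-7a-2-3p, and 1 did so for miR-100-3p. Under 1 factor of unwanted variation the edgeR adjusted p was 0.00205 for miR-125b-5p (log2 fold change 0.27) and 0.00637 for miR-125b-1-3p (0.24), and with no filter on low counts it was 0.0163 for miR-125b-5p (0.27), but these changes were short of the 0.3 required. Across all alternatives run, adjusted p values were 0.00205 to 0.518 for miR-125b-5p and 0.00637 to 0.475 for miR-125b-1-3p. Of 159 member values under the alternatives, 150 kept their sign and 9 reversed, and none met both call thresholds. The log2 fold change alone exceeded 0.3 when single libraries were left out, with a maximum of 0.36 for miR-125b-5p and 0.31 for miR-125b-1-3p. The number of miRNAs called was 19 with the replicate block and 28 with 1 factor of unwanted variation, against 11, which were among both. Whether the numbers of the replicates pair the libraries was not stated in the labels. The deviations of same-numbered libraries correlated across 195 miRNAs by 0.17, -0.34, 0.10 and -0.18, which cannot decide it. The block changed no call of a member.

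Leaving out each library in turn gave 6 to 19 miRNAs called (6 without vehicle replicate 4, 7 without vehicle replicate 2 or IL-1β replicate 3, and 19 without IL-1β replicate 4). The log2 fold change then ranged from 0.0708 to 0.19 for miR-125a-5p, -0.15 to -0.0523 for miR-125a-3p, 0.13 to 0.36 for miR-125b-5p, 0.17 to 0.31 for miR-125b-1-3p, 0.0547 to 0.17 for miR-125b-2-3p, -1.12 to -0.28 for miR-99a-3p, -0.0682 to 0.18 for miR-99a-5p, -0.0814 to 0.0405 for miR-99b-5p, -0.0669 to 0.19 for miR-99b-3p, -0.0529 to 0.20 for miR-100-5p, -0.0218 to 0.0515 for let-7c-5p, -0.0211 to 0.0639 for let-7a-5p, -0.50 to 1.47 for let-7a-2-3p, -0.0190 to 0.0686 for let-7e-5p and -0.0413 to 0.11 for miR-351-5p. The log2 difference ranged from 0.23 to 0.34 for the arms of miR-125a, 0.0600 to 0.16 for miR-125b-5p to miR-125a-5p, 0.0514 to 0.21 for the miR-125b 3p arms, -0.15 to -0.0085 for miR-99b-5p to miR-99a-5p, 0.12 to 0.23 for miR-125b-5p to miR-99a-5p, -0.0257 to 1.21 for the arms of miR-99a, -0.21 to 0.0716 for those of miR-99b and -0.0501 to 0.0419 for miR-100-5p to miR-99a-5p. miR-99b-5p was at -0.0197 with library totals only and -0.0064 with no filter, and let-7c-5p at -0.0110 and -0.00093. Apart from leaving out a library, for these reversals the cause was not tested. Depth limits miR-99a-3p, at 0 to 13 counts per library.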

Other observations

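miR-125a-5p and miR-99b-5p come from the same 692 bp of chromosome 17, and their ratio was looked at after the values had been seen. It was 2.15, 2.30, 2.43 and 2.21 in vehicle replicates 1 to 4 and 2.56, 2.49, 2.52 and 2.56 in IL-1β replicates 1 to 4. All 4 IL-1β libraries, replicate 4 included, lay above all 4 vehicle libraries. No test was applied, since the ratio was chosen for its values.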
